A study of Rattus norvegicus with 16 samples.

Results

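The GIMAP genes (GTPases of immunity-associated proteins) were followed in rat liver across time and phenformin treatment. The family was taken as Gimap1, Gimap4, Gimap5, Gimap6, Gimap7, Gimap8 and Gimap9, matched by symbol in the array's annotation, which gives 7 of the 22093 genes that a probe set with a single symbol represents. They were chosen with differences between day 3 and day 14 on the same arrays already in view. Under which feed those were seen is not known here. The comparisons over time are therefore descriptions, and nothing is read from the limma counts printed beside them. The data are 16 liver profiles from a 1-colour Affymetrix array of male RccHan Wistar rats that were 7 to 8 weeks old at assignment. In each of 4 groups there were 4 arrays: control feed at day 3, control feed at day 14, and feed with 3000 ppm phenformin, a biguanide, at day 3 and at day 14. The titles number the arrays of a group as biological repeats, and the protocol states 5 rats per group, of which 4 are analysed here. Rats shared cages, 2 or 3 to a cage, and which rats did so is unknown here, as are any array batches. The rats of day 14 were also older and were killed on another day than those of day 3, which cannot be told apart from the time on the feed. Values are log2 of the deposited intensity, given as mean ± SD (n = 4 arrays), and their number limits the precision.

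GIMAP proteins share a GTP-binding domain, many sit on intracellular membranes, and they are known chiefly from lymphocytes, where they act in development and survival. Gimap5 is the best known in rats: its loss in the diabetes-prone BB strain leaves the animals with few T cells. In mice, loss of Gimap5 also damages the liver and its endothelium. A piece of liver holds T, B and natural killer cells, macrophages and endothelium beside hepatocytes. In such bulk samples, fewer cells of a type and less RNA per cell cannot be told apart.

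All 7 genes lie side by side on rat chromosome 4, from 78931003 to 79031917 in the GRCr8 assembly, a stretch of 100.9 kb with 0 other protein-coding genes in the RefSeq annotation. Their order is Gimap8, Gimap9, Gimap4, Gimap6, Gimap7, Gimap1 and Gimap5. In that order 6 lie on the plus strand, and Gimap6 lies on the minus strand. Each has 1 probe set, its gene identifier matched that of RefSeq, and the probe set's identifier places it on chromosome 4. Probe sequences were not compared, so signal shared between these related genes was not tested.

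The 3 genes whose levels differed most over time in control livers, Gimap8, Gimap9 and Gimap4, are neighbours at the start of the cluster. Their stretches just before the annotated gene start are shown because these 3 genes stood apart from the other 4 in that comparison. The family was picked with differences over time in view, so nothing is read from that choice. The sequences are RefSeq's (GRCr8, plus strand, 5′ to 3′), at chr4:78930834-78931002, chr4:78957201-78957450 and chr4:78967047-78967296. Capitals mark TGTGGT, the core bound by RUNX factors, and AGGAAG, a core of the kind that ETS factors bind, each on either strand (ACCACA and CTTCCT in reverse).
Gimap8: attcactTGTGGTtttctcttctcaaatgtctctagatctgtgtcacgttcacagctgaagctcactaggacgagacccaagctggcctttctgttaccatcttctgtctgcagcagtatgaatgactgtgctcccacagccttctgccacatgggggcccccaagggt
Gimap9: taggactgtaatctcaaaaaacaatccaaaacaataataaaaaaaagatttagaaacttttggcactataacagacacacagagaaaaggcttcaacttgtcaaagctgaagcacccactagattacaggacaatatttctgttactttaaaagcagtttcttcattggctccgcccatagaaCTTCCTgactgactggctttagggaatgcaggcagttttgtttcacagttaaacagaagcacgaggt
Gimap4: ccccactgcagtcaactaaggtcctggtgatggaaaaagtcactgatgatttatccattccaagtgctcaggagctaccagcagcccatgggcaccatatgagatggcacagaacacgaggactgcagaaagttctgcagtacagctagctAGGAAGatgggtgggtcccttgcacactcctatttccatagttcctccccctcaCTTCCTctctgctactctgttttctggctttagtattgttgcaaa
Neither motif occurred in all 3 stretches. TGTGGT was found for Gimap8, whereas Gimap9 held 1 and Gimap4 held 2 copies of AGGAAG. The members' windows of 300 bases held 250 before the annotated gene start and 50 after it, save for Gimap8 and Gimap5 (169 and 176 before it). Over windows of 300 bases TGTGGT occurred in 2 of the 7 members, Gimap8 and Gimap1, and in 17.3% of 33469 rat promoters. AGGAAG occurred in 5 of 7 (Gimap1, Gimap4, Gimap6, Gimap9 and, not before its annotated gene start, Gimap5) and in 34.51% of all promoters. That motif was chosen after the windows had been read. A TATA box (TATAAA) was found in 0 of 7 windows, against 14.22% of all promoters, and TGGGAA, the core bound by Ikaros, in 0 of 7 against 25.68%. The longer ETS core CCGGAAG, which shares its last bases with AGGAAG, was found in 0 of 7 (8.75%), and the GC box GGGCGG in Gimap9 alone (33.06%). Such matches are letters in a window and are not shown to be bound.

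Detection calls were not used here, so the median of all probe sets on an array (4.95 to 5.11 over the 16 arrays) served as a mark of the low end of the scale. Gimap4, Gimap8, Gimap6 and Gimap1 stood above it on 16 of 16 arrays. Gimap5 lay at it, above on 9 arrays and below on 7. Gimap7 and Gimap9 lay below it on all 16 arrays, with means of 4.43 and 3.93 that exceeded 31.15% and 16.97% of all probe sets. No probe-level background was available for these 3 genes, so how far their folds reflect RNA was not tested. Levels of different probe sets are not comparable with each other, and only groups are compared.

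**Figure D1:**
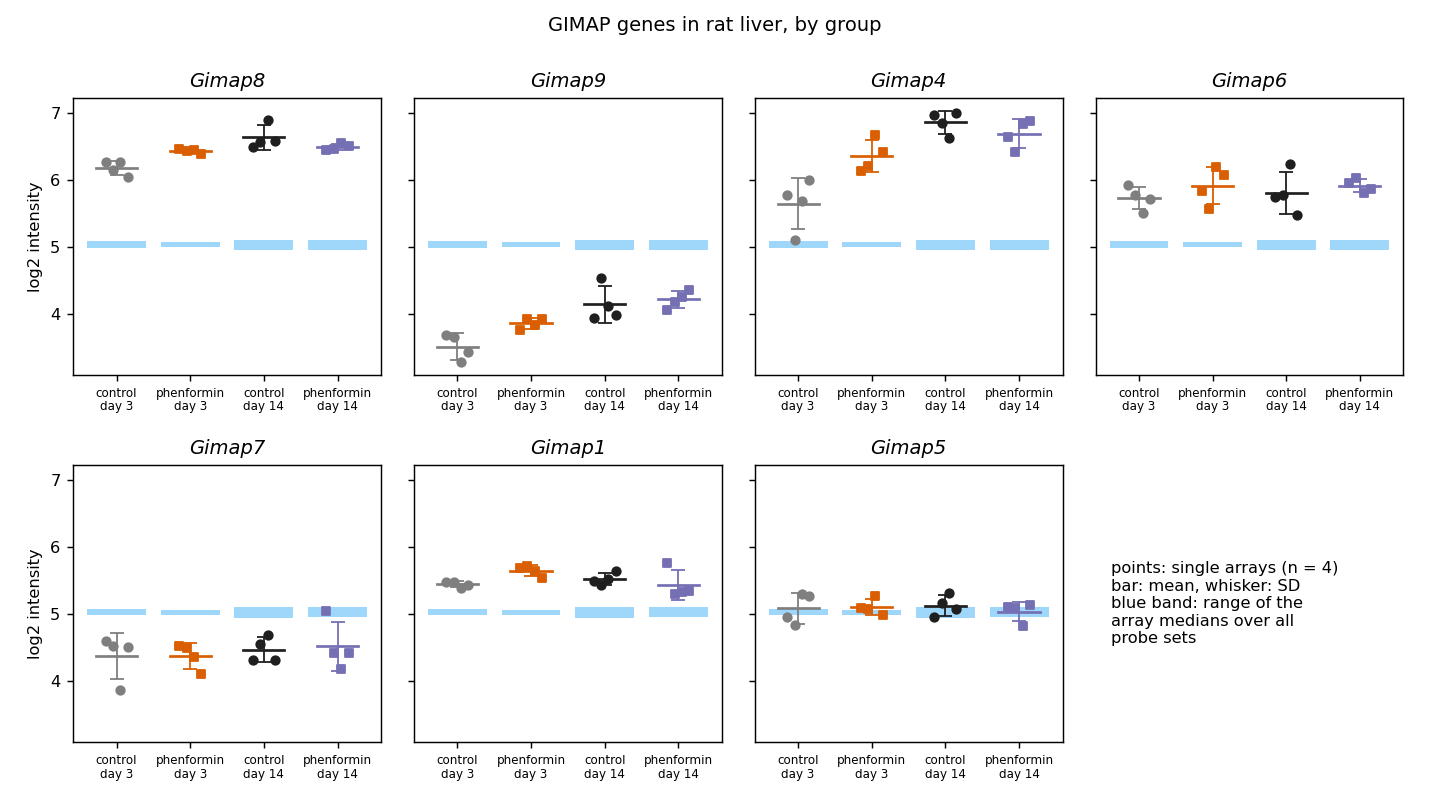
Log2 intensity of the 7 GIMAP genes in the 4 groups, in their order along the chromosome; points are arrays (n = 4), horizontal bars are means, whiskers are SD, and the blue band is the range of the array medians in that group. For Gimap8, Gimap9 and Gimap4 the control livers of day 3 lie below all arrays of the 3 other groups, while Gimap9 lies below the band and Gimap7 does so except for 1 array at 5.04, within the band but below its own array's median of 5.11.

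Gimap4, a family member that in rodents influences T cell death, had the largest difference of the 7 over time in control livers. Its 4 control livers of day 3 stood at 5.77, 5.10, 5.69 and 6.00 and those of day 14 at 6.97, 6.85, 6.62 and 7.00. The phenformin livers stood at 6.13, 6.21, 6.67 and 6.41 at day 3 and at 6.64, 6.41, 6.84 and 6.87 at day 14. The control livers of day 3 were thus lower than each of the 12 other arrays, and the means stood in the order 5.64 ± 0.38 (control, day 3), 6.36 ± 0.24 (phenformin, day 3), 6.69 ± 0.21 (phenformin, day 14) and 6.86 ± 0.17 (control, day 14). In that order, day-3 and day-14 phenformin livers overlapped, and so did phenformin and control livers of day 14. Control livers were 2.33-fold higher at day 14 than at day 3 and phenformin livers 1.26-fold higher (log2 differences of 1.22 and 0.33).

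Gimap8, the largest protein of the family, with several GTP-binding domains, followed the same order with smaller steps. The control livers stood at 6.27, 6.14, 6.26 and 6.05 at day 3 and at 6.50, 6.56, 6.90 and 6.58 at day 14, with no overlap. The phenformin livers lay close together, at 6.46, 6.43, 6.44 and 6.39 at day 3 and at 6.44, 6.46, 6.54 and 6.51 at day 14, and these ranges overlapped. Day 14 was 1.37-fold above day 3 in control livers (log2 difference 0.45) and 1.04-fold above in phenformin livers (0.06). The phenformin livers of both days lay between the control livers of day 3 and the highest control livers of day 14.

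Gimap9 had means of 4.22 ± 0.13 in phenformin and 4.14 ± 0.27 in control livers of day 14, which overlapped. Control livers stood at 3.69, 3.66, 3.28 and 3.43 at day 3 and at 3.94, 4.54, 4.11 and 3.98 at day 14. Phenformin livers stood at 3.76, 3.93, 3.83 and 3.92 at day 3 and at 4.06, 4.18, 4.26 and 4.36 at day 14. Day 3 and day 14 did not overlap under either feed, and the difference was 1.55-fold in control livers (log2 difference 0.63) and 1.28-fold in phenformin livers (0.35). All 16 values lay below the median of their array. With 16 added to each intensity before the log, the difference was 0.30 in control and 0.18 in phenformin livers.

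The 4 other members had day-3 and day-14 arrays that overlapped under either feed. Gimap6, whose protein takes part in autophagy in mice, had group means from 5.73 ± 0.17 (control, day 3) to 5.91 ± 0.27 (phenformin, day 3). Gimap5 had group means between 5.03 ± 0.14 (phenformin, day 14) and 5.13 ± 0.15 (control, day 14). Gimap7, a dimer-forming GTPase that in human proteins can speed GTP hydrolysis by other members, ranged from 4.37 ± 0.19 (phenformin, day 3) to 4.52 ± 0.37 (phenformin, day 14). Gimap1, which mature B and T cells of mice need to survive, stood at 5.49, 5.48, 5.39 and 5.44 in control livers of day 3 and at 5.69, 5.72, 5.64 and 5.54 in phenformin livers of that day. Its day-14 arrays stood at 5.49, 5.43, 5.53 and 5.64 in control and at 5.76, 5.30, 5.33 and 5.35 in phenformin livers. Phenformin livers thus stood above control livers at day 3 without overlap, and at day 14 3 of 4 stood below all control livers and 1 above them. With the 7 genes averaged, each centred on its own mean, the arrays ran from -0.33 to -0.13 in control livers of day 3, from -0.03 to 0.11 in phenformin livers of day 3, from 0.04 to 0.25 in control livers of day 14 and from 0.02 to 0.20 in phenformin livers of day 14.

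Over the 7 genes, day 14 exceeded day 3 in control livers by a median of 0.09 on the log2 scale (0.04 to 1.22), where the median of all genes was -0.0039. In the limma fit 3 of the 7 passed the adjusted threshold of 0.05 as higher, which 0.0498% of all genes did (0.403% in either direction, and 7.15% at an unadjusted p under 0.05). The same 3 had no overlap of the 8 arrays as higher, against 1.54% of all genes, and 0 members lay lower without overlap, against 2.96%. The members were selected on differences between day 3 and day 14 on these same arrays, under a feed that is not known here. This contrast may be the one used, so nothing is read from either count. The count was 2 without any of 4 phenformin arrays, 1 without any of 10 other arrays, and 0 without control replicate 1 of day 3 or control replicate 2 of day 14. In a fit of the 8 control arrays alone it was 0, as it was for all genes. In phenformin livers the median over the members was 0.06 (-0.21 to 0.35), and limma called 0 of 7 members and 0% of all genes, with an unadjusted p under 0.05 for 2 members and for 7.71% of all genes. Of the 7, Gimap9 alone had no overlap, as higher, which 2.1% of all genes had, and 0 members lay lower without overlap (2.15%).

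**Figure D2:**
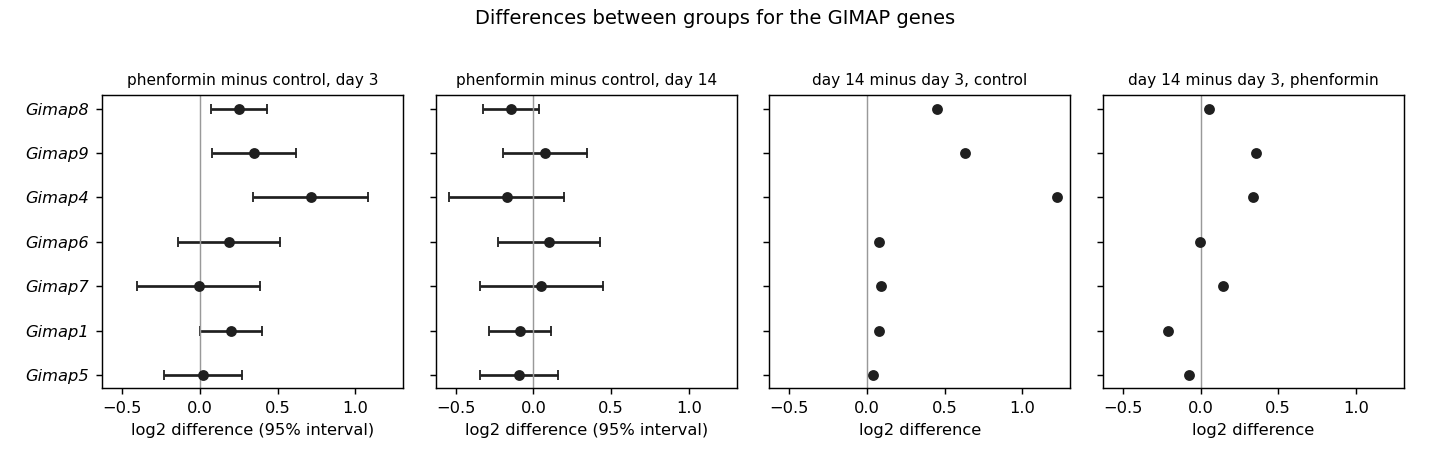
Log2 difference of group means for the 7 genes (rows) in 4 comparisons (panels), with 95% intervals from the limma fit of 16 arrays for the phenformin comparisons. Those over time carry no interval, because the genes were picked with such differences in view. At day 3, in a comparison that shares the low control arrays, the intervals of Gimap4, Gimap8 and Gimap9 lie above 0 and the others cross it. On that day 0 of 7 genes passed the adjusted threshold, against 1.15% of all genes. At day 14 all 7 intervals cross 0.

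No GIMAP gene passed limma's test for a phenformin effect on either day. These comparisons ask whether the drug shifts the family, and they use the same control arrays as the comparison over time, so the low control livers of day 3 enter both. At day 3 the phenformin livers were higher for 6 of 7 members, with a median log2 difference of 0.20 (all genes 0.0066). Gimap4 was 1.64-fold higher (1.27 to 2.12, 95% interval), and its adjusted p in the limma fit was 0.0688. Gimap9 was 1.27-fold higher (1.06 to 1.53; limma adjusted p = 0.292), a log2 difference of 0.35 that was 0.15 with the pseudocount of 16. Gimap8 was 1.19-fold higher (1.05 to 1.35; limma adjusted p = 0.241) and Gimap1 1.15-fold (1.00 to 1.32; limma adjusted p = 0.471). In these 4 genes no phenformin array overlapped a control array of day 3, which held as higher for 3.51% of all genes, and 0 members lay lower without overlap (4.17%). Gimap6, Gimap5 and Gimap7 overlapped, with differences of 0.19, 0.02 and -0.0061 (limma adjusted p = 0.765, 0.983 and 0.995). So limma called 0 of 7 members, against 1.15% of all genes (0.249% higher and 0.901% lower), and 3 members had an unadjusted p under 0.05, against 10.6% of all genes. Gimap4 passed when the lowest 40% of genes were left out (adjusted p = 0.048) and without control replicate 4 of day 3 (0.0419). Over all alternatives its adjusted p ran from 0.0405 to 0.199.

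At day 14 the phenformin and control livers overlapped for all 7 members. The log2 differences ran from -0.17 (Gimap4; 95% interval -0.54 to 0.20) to 0.10 (Gimap6; -0.23 to 0.43), with a median of -0.09 (all genes 3e-04). The interval of Gimap8 was -0.33 to 0.04 and that of Gimap9 was -0.20 to 0.34. Limma called 0 of 7 members, against 0.321% of all genes, and 0 of 7 had an unadjusted p under 0.05, against 11.2% of all genes. Of all genes, 2.79% stood higher and 2.44% lower without overlap. The phenformin effect at day 14 minus that at day 3 was -0.89 for Gimap4 (-1.41 to -0.36; limma adjusted p = 0.409), -0.40 for Gimap8 (-0.65 to -0.14; 0.535) and -0.27 for Gimap9 (-0.66 to 0.11; 1). In this comparison of effects limma called 0 of 7 members and 0.00453% of all genes, with 3 members and 4.68% of all genes at an unadjusted p under 0.05. It contains both differences over time, and the genes were picked with differences over time in view, under a feed that is not known here.

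**Figure D3:**
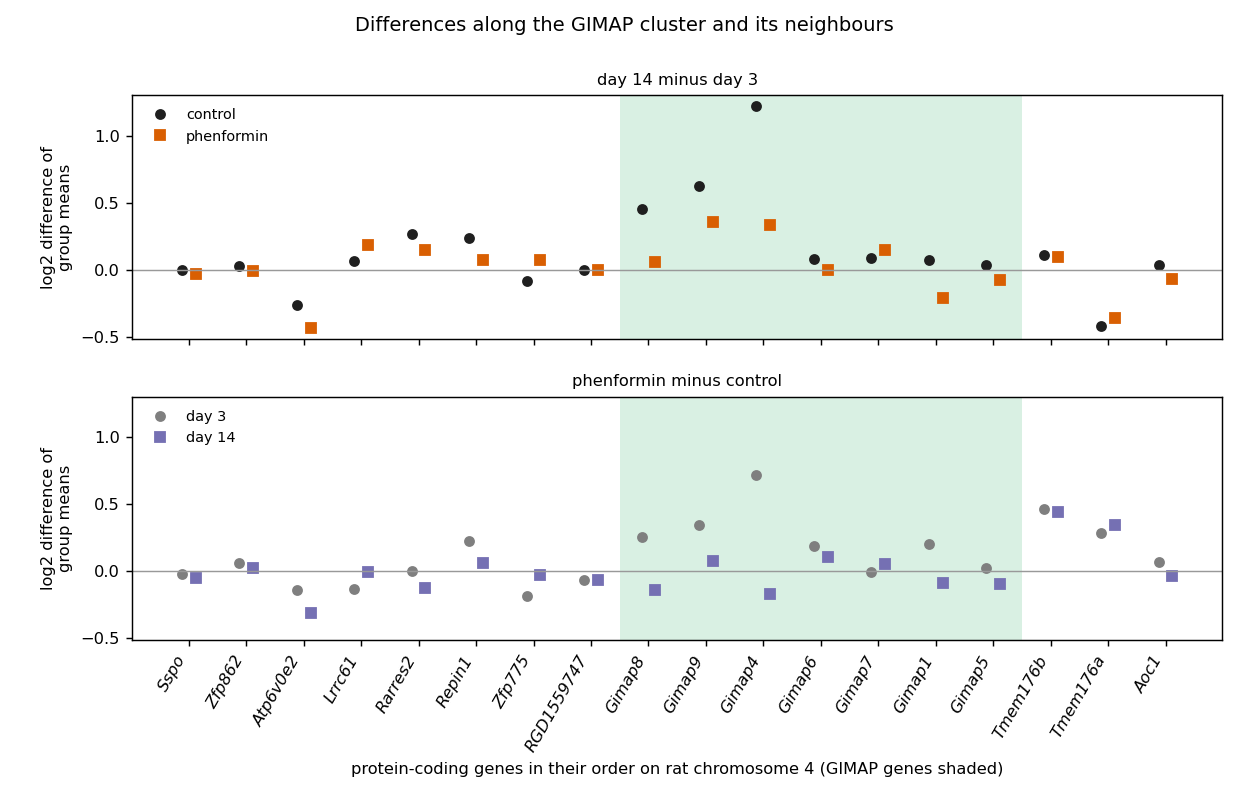
Log2 difference of group means for protein-coding genes in their order on rat chromosome 4, with the GIMAP genes shaded; the upper panel shows day 14 minus day 3 in control (circles) and phenformin livers (squares), the lower panel phenformin minus control at day 3 (circles) and day 14 (squares). The high control points over time belong to Gimap8, Gimap9 and Gimap4, and the 11 neighbours in control livers over time lie between -0.42 and 0.27. The family, unlike its neighbours, was picked with differences over time in view.

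Along the chromosome the 3 high differences over time in control livers lay next to each other. The family was picked with differences over time in view and its neighbours were not, so nothing is read from the gap between them. In control livers 11 neighbouring genes outside the family had day-14 minus day-3 differences between -0.42 (Tmem176a) and 0.27 (Rarres2, the adipokine chemerin). Inside it, Gimap6 stood next to Gimap4 and differed by 0.08. Tmem176b and Tmem176a, membrane proteins of immune and liver cells, begin 65.9 kb beyond Gimap5. Their phenformin minus control differences at day 3 were 0.46 and 0.28 (limma adjusted p = 0.451 and 0.646). In a list of genes of the wider region, 0 of 11 measured passed in any of the 4 comparisons. Of all genes, 1.15% passed with phenformin at day 3 and 0.321% at day 14. Over time 0.403% passed in control and 0% in phenformin livers. At such shares a count of 0 in a short list is no result about the list.

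T cell markers had a median change of 0.01 in control livers from day 3 to day 14 (all genes -0.0039). Of 15 measured, 0 were called over time in control livers (0.403% of all genes), with phenformin at day 3 (1.15%) or at day 14 (0.321%), and at such shares a count of 0 in a short list, here and in the lists that follow, is no result about the list. The mean of the list ranged from 5.27 to 5.39 in control livers of day 3, 5.30 to 5.47 in those of day 14, 5.31 to 5.50 in phenformin livers of day 3 and 5.22 to 5.48 in those of day 14. Apart from Cd4, the 14 markers had means between 2.81 (Trat1) and 5.69 (Lat, an adaptor of the T cell receptor), and of all 15 the means of 9 exceeded that of the median probe set (5.01). Cd3e, a T cell receptor subunit chosen after its values were seen, stood at 4.98 in control livers of day 3 and 5.05 in those of day 14. With markers this close to the low end of the scale, the name of lymphocyte genes could not be checked in these livers. Cd4, which rat macrophages also carry, stood at 10.18 and 10.76 (limma adjusted p = 0.707). B and plasma cell markers had 0 of 10 past the threshold in these comparisons, with a median change over time in control livers of 0.05. Their highest members Cd22 and Cd79a, both of the B cell receptor complex or its regulators, differed by 0.18 and -0.21.

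Lists for natural killer cells, macrophages and antigen presentation had positive median differences in control livers over time, with 0 genes past the threshold. Among 11 natural killer and cytotoxic markers 0 passed, with a median change of 0.17 in control livers over time. Gzma, a granzyme, differed by 0.37 (limma adjusted p = 0.815) and the activating receptor Klrk1 by 0.41. For 12 macrophage markers the median was 0.44, again with 0 past the threshold, and Clec4f and Cd5l, both of Kupffer cells, differed by 0.31 and 0.76 (limma adjusted p = 0.923 and 0.84). That list's mean ranged from 9.32 to 10.22 in control livers of day 3, 10.03 to 10.55 in those of day 14, 9.67 to 11.06 in phenformin livers of day 3 and 9.90 to 10.69 in those of day 14. The list of dendritic cell and MHC class II genes had ranges that did not overlap over time in control livers, from 6.06 to 6.29 at day 3 and from 6.44 to 6.56 at day 14, with 6.04 to 6.87 and 6.22 to 6.52 in phenformin livers. Of its 11 genes 0 passed. Cd74, the invariant chain of class II, differed by 0.89 and the class II chain RT1-Da by 1.00 between control livers of the 2 days (limma adjusted p = 0.536 and 0.639). Such a lack of overlap was not particular to this list. The stellate cell and fibroblast list ranged from 8.44 to 8.68 in control livers of day 3 and, lower, from 8.23 to 8.33 in those of day 14. The 12 pan-leukocyte genes had a median change of 0.19 with 0 past the threshold, and Ptpn6 and Cd53 differed by 0.05 and 0.36. The part of these cell types in the GIMAP differences was not tested.

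**Figure D4:**
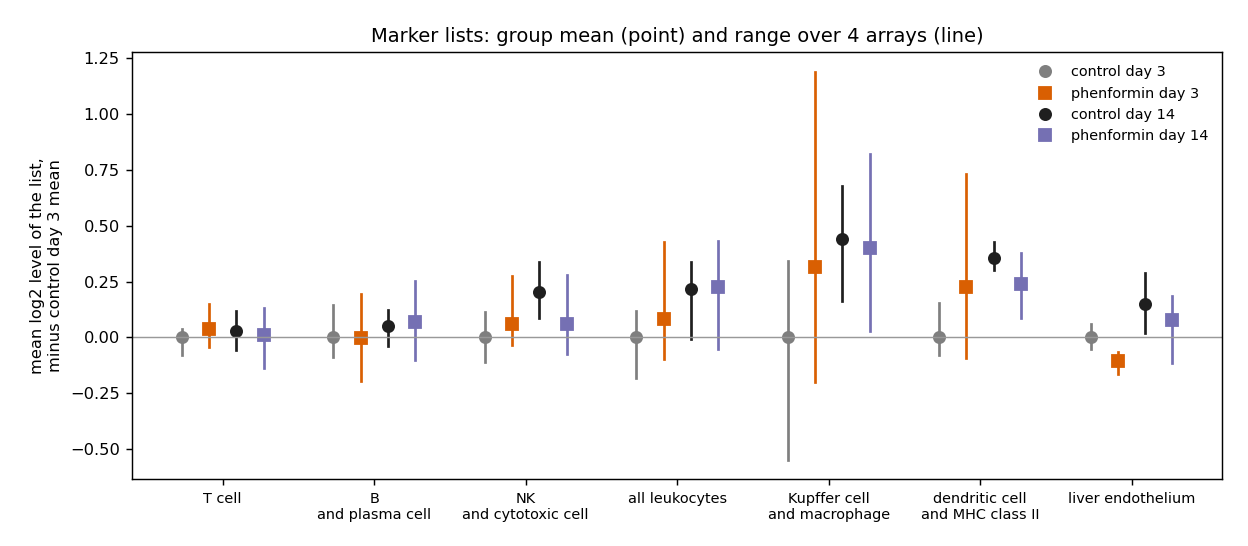
Mean log2 level of 7 marker lists in the 4 groups, each minus the mean of the control livers of day 3; points are group means and lines span the 4 arrays. T and B cell lists stay near 0 in all groups, and the list of dendritic cell and MHC class II genes stands higher in control livers of day 14 without overlap with those of day 3. The endothelial list stands lower in phenformin than in control livers of day 3, also without overlap.

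Endothelial markers had a median difference of 0.16 over time in control livers and of -0.10 with phenformin at day 3. Of 15 endothelial markers 1 passed, Stab2, a scavenger receptor of sinusoids, as lower with phenformin at day 3, against 0.901% of all genes. It fell 1.47-fold (1.22 to 1.77; limma adjusted p = 0.0412). Not all of the list fell there: Pecam1 and Clec4g, named after their values were seen, differed by 0.23 and 0.37. The list's mean ranged from 9.51 to 9.63 in control livers of day 3 and from 9.58 to 9.85 in those of day 14. In phenformin livers of day 3 it was lower than in control livers, with a mean of 9.46 ± 0.04 against 9.57 ± 0.05. Of 11 stellate cell and fibroblast genes, 5 passed as lower with phenformin at day 3, against 0.901% of all genes. Over time in control livers 2 of 11 passed as lower, against 0.353% of all genes. At day 3 these included Lum, a small proteoglycan (log2 difference -1.25; limma adjusted p = 0.00672), Col1a2 (-0.82; 0.00776) and Col1a1 (-0.79; 0.00622). Col3a1, a fibrillar collagen, differed by -0.59 with phenformin and by -0.58 over time (limma adjusted p = 0.00905 and 0.0289), in comparisons that share the control livers of day 3. For Col3a1 the control livers of day 3 stood highest (11.19), where for Gimap4 they stood lowest. Neutrophil (9 measured), bile duct (6), erythroid (5) and hepatocyte (7) markers had 0 past the threshold in any of the 4 comparisons. Alb and Ttr, secreted hepatocyte proteins, stood at means of 19.89 and 19.16, close to the top of the scale (19.93).

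Genes tied to GIMAP function in lymphocytes were also listed. At the shares of all genes given above, counts of 0 here are no result about the lists. Among 9 members of the BCL2 family, regulators of cell death to which GIMAP proteins have been reported to bind, 0 passed in any of the 4 comparisons, and Mcl1 and Bid differed by 0.0052 and -0.16 in control livers over time. Of 13 genes of lymphocyte survival and traffic 0 passed, with Foxo1 and S1pr1 at 0.09 and -0.01 over time in control livers, and at -0.53 and -0.39 with phenformin at day 14 (limma adjusted p = 0.273 and 0.255). Of 12 lymphoid transcription factors 1 passed, as lower with phenformin at day 3, against 0.901% of all genes. A single call in a short list is no result about the list. The gene was Ets1, a founding ETS factor, which fell 1.28-fold (1.14 to 1.43; limma adjusted p = 0.0345). At day 14 its difference was -0.35 (adjusted p = 0.0653), and over time in control livers it was -0.05. The interferon-induced GTPases, another family of immune GTPases, had 0 of 7 past the threshold. Mx2 and Irgm differed by 0.79 and 0.50 with phenformin at day 3 (limma adjusted p = 0.672 and 0.746) and by 0.31 and 0.10 over time in control livers.

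The genes whose profile was most like the mean of the 7 members over the 16 arrays were found by Pearson correlation, as a description of arrays that share the group differences. They were Ctla2a, a protease inhibitor-like gene (r = 0.86), Vom2r70 of the vomeronasal receptors (0.84), the ADP receptor P2ry12 (0.83), Serpinb6a (0.82), the pocket protein Rbl2 (0.82), the mitochondrial enzyme Dhtkd1 (0.82), Nlrp12 of the innate immune NLR family (0.79) and the adhesion receptor Adgrf5 (0.79). After subtraction of group means these correlations were 0.67, 0.85, 0.73, 0.60, 0.52, 0.54, 0.55 and 0.39, values that the choice of the genes also favours. Vom2r70 had a mean of 4.43, below the lowest array median. In each of these 8 genes the control livers of day 3 had the lowest mean, which their choice by likeness favours. Between Gimap4, Gimap8 and Gimap9 the correlations were 0.71 (Gimap4 with Gimap8), 0.72 (Gimap4 with Gimap9) and 0.69 (Gimap8 with Gimap9). After subtraction of group means they were -0.23, -0.13 and 0.04.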

How the data were processed

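The deposited table gives 1 intensity per probe set and array, made by the authors with RMA (background correction, normalization between arrays, summary per probe set) per the submitters' processing notes, and on a linear scale. No source used here names the program or any rescaling, so folds are ratios of deposited values. Array medians lay between 30.89 and 34.46. The annotation paired 23446 of 68842 probe sets with 1 symbol, and 505 with several symbols and 44891 unnamed ones were left out. The probe set with the highest mean stood for a gene. Log2 values without pseudocount or filter were fitted with 4 group means over 16 arrays in limma 3.58.1 (R 4.3.3; 15.15 degrees of freedom with the prior), and p-values were Benjamini-Hochberg adjusted over 22093 genes, called under 0.05. The fit was tested on simulated data. Groups came from sample titles. The members, the 17 marker and pathway lists and the tests were chosen with earlier results of these data known. Genes named are the members, list members called in a comparison (otherwise the 2 with the highest mean) and the 8 genes most correlated with the family; others are marked. Correlations carry no test. Alternatives were a trended robust prior, a filter on the lowest 40% of genes, quantile normalization, centring, the 8 compared arrays only, array weights, the mean of all probe sets, a pseudocount of 16, a replicate block and leaving out each array. RefSeq names and promoters are of GRCr8.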

Additional observations from a re-analysis of the deposited data

Results flagged for a closer look

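In 3 of the 28 sets of 4 values (7 genes in 4 groups) a single array lay far from the others, where chance gives about 1 in 20. Gimap1 was at 5.76 in replicate 1 of the phenformin livers of day 14, against 5.30 to 5.35 in the other arrays. Gimap5 was at 4.82 in replicate 3 of the same group, against 5.09 to 5.13. Gimap7 was at 3.87 in replicate 3 of the control livers of day 3, against 4.51 to 4.61.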

How the results depend on the processing

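Over 9 alternatives (8 for Gimap9, which the filter removed), Gimap4, Gimap8 and Gimap9 kept their direction in control livers over time. They did so with phenformin at day 3 too, and in the 16 fits that each left out 1 array. The arrays compared did not overlap for these genes, so leaving out 1 array, array weights or the pseudocount could not reverse the direction. The other prior, the filter, the 8 compared arrays, the replicate block and the mean of all probe sets leave these differences unchanged. Only quantile normalization and centring could have reversed them, and nothing is read from the kept directions. The count of members called for phenformin at day 3 was 1 (Gimap4) without the lowest 40% of genes, which left 4 members in the fit, and 0 to 1 with single arrays left out. The count over time in control livers was 1 with median centring, 0 in the fit of the 8 arrays compared, and 0 to 2 with single arrays left out. With the pseudocount of 16 the differences of Gimap9 were 0.30 there, 0.15 with phenformin at day 3 and 0.18 over time in phenformin livers. The replicate block gave 1 member for phenformin at day 3 (Gimap4, adjusted p = 0.0405) and 1 over time in control livers. Same-numbered arrays of the groups compared had deviations from their group means that correlated between -0.04 and 0.18, over 0.1 in 1 or 2 of 4 pairs, so the numbers were not taken as pairs. With single arrays left out, values near 0 changed sign for Gimap5 and Gimap7 at day 3 (-0.065 to 0.089 and -0.18 to 0.084), for Gimap6 and Gimap7 at day 14 (-0.0092 to 0.24 and -0.12 to 0.16) and for the difference of effects of Gimap6 and Gimap7 (-0.20 to 0.058 and -0.12 to 0.23). Those of Gimap5, Gimap6 and Gimap7 over time in control livers also did so (lowest -0.05, -0.06 and -0.08), as did those of Gimap6 (-0.12 to 0.087) and Gimap7 (-0.028 to 0.26) over time in phenformin livers. Gimap6 there also changed sign with median centring (0.024) and quantile normalization (6e-04). The cause was not tested. Of all genes, the count called for phenformin at day 3 was 254 and 405 with array weights. At day 14 it was 71, and 169 with the filter, 131 with the pseudocount and 23 with 8 arrays. Over time in control livers it was 89, and 149 with array weights, 47 with the replicate block and 0 with 8 arrays. Over time in phenformin livers it was 0, and 4 with the filter, and for the difference of effects it was 1, and 0 with the filter or the block and 2 with array weights. Gimap7 and Gimap9 are limited by levels below the array median on all 16 arrays, and all 7 by 4 arrays a group.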
